A study of Mus musculus with 8 samples.

Results

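Pulmonary surfactant lines the alveoli with phospholipid and 4 proteins, and it is made, stored in lamellar bodies and secreted by type 2 alveolar cells. Expression was followed here for 9 genes of this system, all of them chosen by name as surfactant proteins or as established machinery of the type 2 cell: *Sftpa1*, *Sftpb*, *Sftpc*, *Sftpd*, *Abca3*, *Lamp3*, *Napsa*, *Slc34a2* and *Lpcat1*. All 9 were found among the 55416 gene identifiers of the count files, and all 9 were among the 18560 genes that passed the filter on low counts.

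The hydrophobic proteins SP-B and SP-C, encoded by *Sftpb* and *Sftpc*, spread the lipid film and keep it stable when the alveolus shrinks. SP-A and SP-D, encoded by *Sftpa1* and *Sftpd*, are collectins, soluble lectins that bind microbes and take part in innate defence and in surfactant turnover. The lipid is loaded into lamellar bodies by the transporter ABCA3, and loss of SP-B or ABCA3 is a known cause of respiratory failure at birth.

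Lung RNA was sequenced from 8 female C57BL/6J mice of 6 to 8 weeks. The 3 control mice received the solvent DMSO intravenously and then saline, the 3 LPS mice received 35 mg/kg of bacterial lipopolysaccharide intraperitoneally, and the 2 dual-treated mice received 10 mg/kg of YW3-56, an inhibitor of protein arginine deiminases dissolved in DMSO, shortly before the same LPS dose. Lungs were taken at 24 h. In the study's survival experiment the median survival was below 24 h with this LPS dose and above 24 h when YW3-56 was given first. How ill the sequenced mice were is not given in the sources used here. DMSO is named for the control and YW3-56 injections but not for the LPS group, so in dual-treated against LPS lungs the inhibitor and its solvent cannot be told apart. Libraries are named by group and mouse number: control 1, 2 and 4, LPS 1, 6 and 7, and dual 2 and 5. Their total counts ran from 19061949 in control 1 to 20908608 in dual 5.

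LPS mice 6 and 7 stood apart from LPS mouse 1 and from all other mice, because their libraries held transcripts of squamous epithelium and skeletal muscle. Levels are given as CPM, counts relative to library totals that were adjusted by TMM factors. The summed level of 7 squamous markers was 698 and 2000 CPM in LPS 6 and 7, against 0.593 in LPS 1 and at most 3.25 in any control or dual library. The one with the highest mean in LPS lungs, the squamous keratin *Krt13*, had 4952 and 15897 counts in LPS 6 and 7 and 5 in LPS 1. The summed level of 8 skeletal muscle markers was 484 and 1255 CPM in LPS 6 and 7, against 16.8 in LPS 1 and at most 19.1 elsewhere, with *Acta1*, the actin of skeletal muscle, the highest in CPM there. Relative to control, 7 squamous and 7 muscle genes were called higher with these libraries, and *Myh2* was below the filter on low counts. Without them only 2 squamous and 5 muscle genes passed the filter, and 0 of these were called higher in LPS mouse 1. After dual treatment 6 squamous and 7 muscle genes were called lower than with LPS and 0 higher, or 2 and 5 without dual 2 or dual 5. Results for surfactant genes are therefore also given with LPS libraries 6 and 7 left out, which leaves LPS mouse 1 as the only LPS library and assumes that it varies like the other groups.

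Levels of different genes were compared per kilobase of exon, and *Sftpc* was the highest of the 9 in every group. In control lungs its mean was 21961 CPM per kilobase, 7.94 times that of *Sftpb* at 2766. *Sftpa1* followed at 1493 and *Sftpd* at 602, and each of these 4 genes was separated from the next in the order without overlap between the control mice. *Slc34a2* was next at 397, and *Lamp3*, *Napsa*, *Lpcat1* and *Abca3* lay at 132, 116, 108 and 41.4. Only *Lamp3* and *Napsa* overlapped between neighbours in this order. In LPS lungs the order was different: *Sftpb*, *Sftpd* and *Sftpa1* came together at 1474, 1221 and 1187 CPM per kilobase with overlapping ranges, and *Slc34a2* dropped to the overlapping range of *Lamp3* and *Napsa* at 82.9. In dual-treated lungs *Sftpa1* at 1635 again lay above *Sftpd* at 904, and *Slc34a2* at 323 again lay above *Napsa* at 127, without overlap. *Sftpb* and *Sftpa1*, apart in control lungs, overlapped there, and *Lamp3*, sixth in control lungs, was eighth, overlapping *Lpcat1*.

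Together the 9 genes took 4.23%, 3.57% and 4.39% of all counts in control 1, 2 and 4. They took 2.40%, 1.90% and 1.62% in LPS 1, 6 and 7, and 2.44% and 3.54% in dual 2 and 5. The LPS libraries were all below the control libraries, dual 5 lay close to the lowest control library, and dual 2 lay close to LPS 1. *Sftpc* held the largest part of each share. In whole lung RNA, fewer type 2 cells and less RNA per type 2 cell cannot be told apart. Whole lung RNA also does not show which cells held a transcript, so a part from other cells cannot be separated for any of the 9 genes.

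In LPS against control lungs, 7 of the 9 genes fell, 1 rose (*Sftpd*) and 1 (*Sftpa1*) was not called, by edgeR's quasi-likelihood test at a Benjamini-Hochberg adjusted p under 0.05 over all genes tested. Over the 18560 genes, 33.9% were called lower and 32.6% higher. The median log2 fold change was -0.91 over the 9 genes and -0.01 over all genes tested. The change was uneven: *Slc34a2*, *Lpcat1* and *Abca3*, which serve transport and lipid handling, fell by the most, while the 4 surfactant proteins ranged from a fall of 0.93 to a rise of 1.02 on the log2 scale. By a criterion of more than 2-fold change at an unadjusted p under 0.05, 3 genes were lower and 1 higher, against 21.8% and 18.3% of all genes. With LPS libraries 6 and 7 left out, 3 genes were called lower, the same *Slc34a2*, *Lpcat1* and *Abca3*, when 5465 of 19272 genes were called lower and 5222 higher, and the median log2 fold change of the 9 was -0.45.

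In dual-treated against control lungs, edgeR's quasi-likelihood test called 0 of the 9 genes higher and 0 lower at an adjusted p under 0.05, against 9.13% and 7.02% of all genes tested. At an unadjusted p under 0.05 the count was 1 higher (*Sftpd*) and 1 lower (*Lamp3*), and the share of all genes at this threshold is not given here. DESeq2 called 1 higher (*Sftpd*) and 0 lower, when 1854 of 17727 genes were called higher and 1871 lower. By the fold change criterion the count was also 0 in both directions, against 7.04% higher and 3.43% lower among all genes. The median log2 fold change was -0.30. A value that missed the threshold does not show that the groups were equal, and with 2 dual-treated mice the intervals were wide for *Sftpc* and *Sftpb*.

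Set against the LPS group, the dual-treated group had 4 of the 9 genes higher (*Slc34a2*, *Lpcat1*, *Abca3* and *Napsa*) and 0 lower by edgeR's quasi-likelihood test at an adjusted p under 0.05, against 31.7% and 27.4% of all genes tested. At an unadjusted p under 0.05 *Sftpa1* was also higher and 1 gene, *Sftpd*, was lower, and the share of all genes at this threshold is not given here. DESeq2 called *Sftpd* lower as well, when 5367 of 22070 genes were called lower and 5519 higher. By the fold change criterion 2 genes were higher and 0 lower, against 20.6% and 14.7%. The median log2 fold change was 0.46. The comparisons share libraries: the control mice serve in 2 of them, the LPS mice in 2 and the dual-treated mice in 2, so their values for a gene are not independent of each other.

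**Figure D1:**
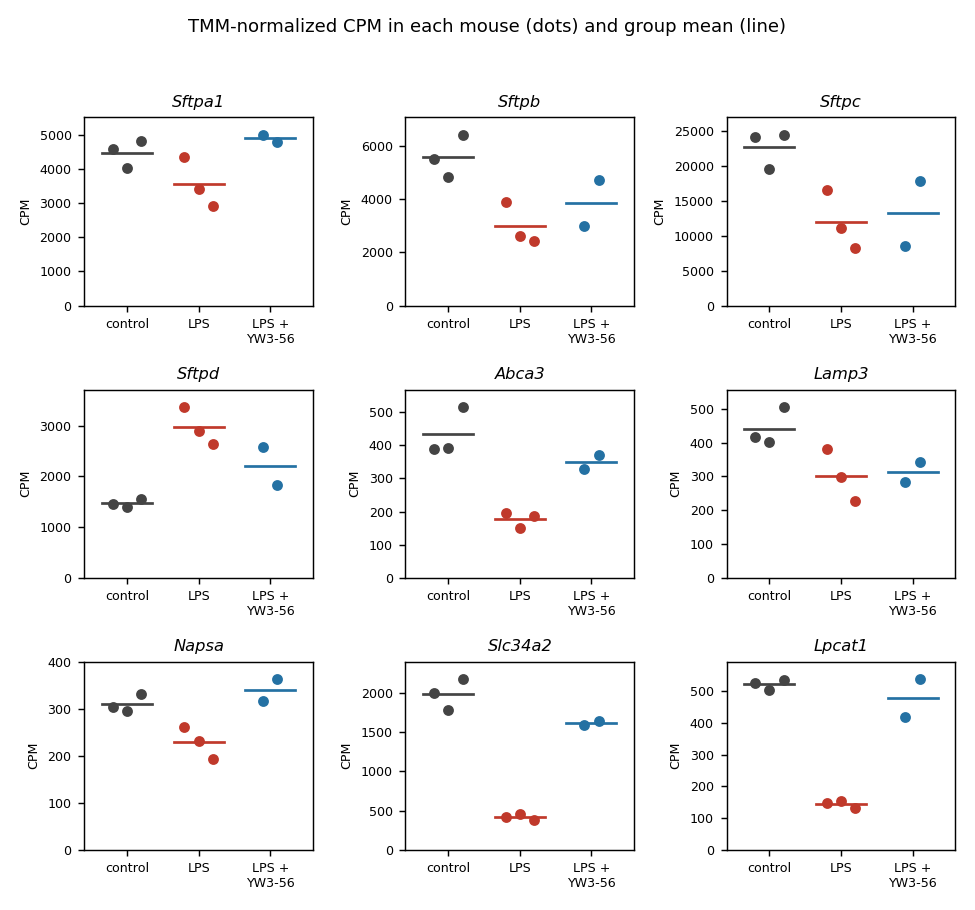
TMM-normalized CPM of the 9 genes in each mouse, on linear axes that start at 0, with a dot for each of 3 control, 3 LPS and 2 dual-treated mice and a line at the group mean. For *Slc34a2* and *Lpcat1* the 3 LPS dots lie far below all others, for *Sftpd* they lie above all others, and for *Sftpc* the dual-treated mice lie at 8528 and 17890 CPM.

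**Figure D2:**
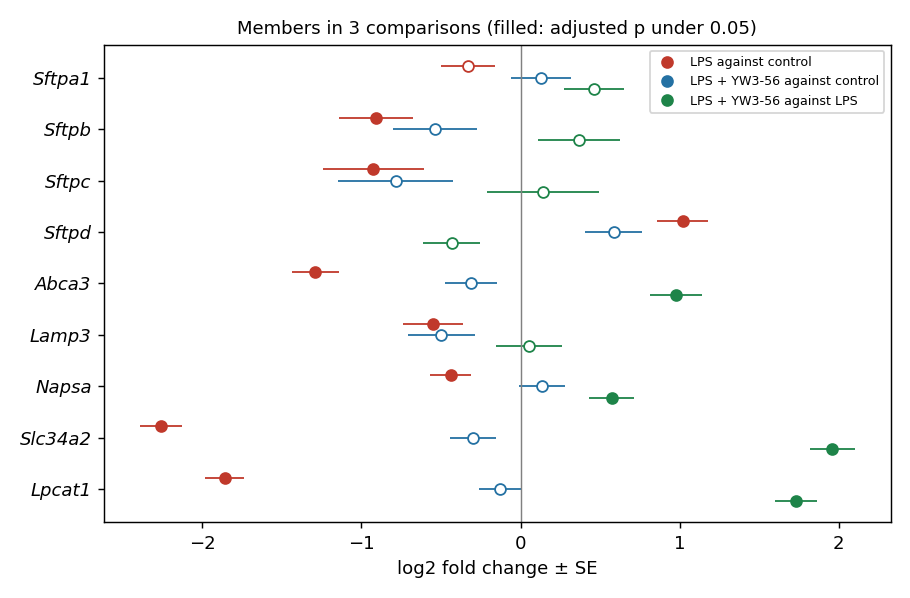
Log2 fold change of each gene, with its standard error as a bar, in the 3 comparisons, from edgeR's quasi-likelihood fit of all 8 libraries; filled points have an adjusted p under 0.05. In LPS against control lungs *Slc34a2* lies at -2.26 and *Sftpd* at 1.02, and no point of dual-treated against control lungs is filled.

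*Sftpc* encodes SP-C, a lipopeptide made only by type 2 cells and the transcript most used to mark them. It had 24217, 19567 and 24536 CPM in control 1, 2 and 4, then 16566, 11054 and 8322 CPM in LPS 1, 6 and 7, and 8528 and 17890 CPM in dual 2 and 5. All LPS mice lay below all control mice, LPS 1 was the nearest to them, and the 2 dual-treated mice lay as far apart as the LPS mice did, with dual 2 near the lowest LPS mouse and dual 5 above the highest. The group means were 22773 ± 2781 (SD, n = 3), 11980 ± 4199 (SD, n = 3) and 13209 ± 6620 (SD, n = 2). The log2 fold change in LPS lungs was -0.93 with a standard error of 0.32 (adjusted p = 0.0266, edgeR quasi-likelihood test, Benjamini-Hochberg). This call was lost when control 1, control 4, LPS 6 or LPS 7 was left out, with adjusted p-values from 0.0691 to 0.0815 and log2 fold changes from -0.88 to -0.71. With LPS libraries 6 and 7 left out the log2 fold change was -0.45 (adjusted p = 0.331, same test). In dual-treated lungs it was -0.79 against control (adjusted p = 0.176, same test) and 0.14 against LPS (adjusted p = 0.746), with standard errors of 0.36 and 0.35. Over the 16 settings the value against LPS ran from -0.508 to 0.558, and it was negative with LPS libraries 6 and 7 left out. Without dual 5 *Sftpc* was called lower than control, at -1.45 (adjusted p = 0.030, same test), and without dual 2 it was at -0.38 (adjusted p = 0.616, same test).

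*Sftpb* encodes SP-B, which is cleaved from a larger precursor before it joins the surfactant film. Its values were 5513, 4829 and 6435 CPM in control 1, 2 and 4, 3884, 2617 and 2443 CPM in LPS 1, 6 and 7, and 2983 and 4716 CPM in dual 2 and 5. The LPS mice were all below the control mice and LPS 1 was again the highest of them, while dual 2 lay inside the LPS range and dual 5 just below the control range. Its log2 change was -0.91 ± 0.23 (SE) in LPS against control (adjusted p = 0.00688, edgeR quasi-likelihood test, Benjamini-Hochberg), and -0.52 with LPS libraries 6 and 7 left out (adjusted p = 0.143, same test). In dual-treated against LPS lungs it was 0.37 ± 0.26 (adjusted p = 0.242, same test), and -0.0195 with LPS libraries 6 and 7 left out. The ratio of *Sftpb* to *Sftpc* counts, which needs no scaling, was 0.228, 0.247 and 0.262 in control 1, 2 and 4, 0.234, 0.237 and 0.294 in LPS 1, 6 and 7, and 0.35 and 0.264 in dual 2 and 5. The control and LPS ranges of this ratio overlapped, so the RNAs of both hydrophobic proteins were lower by similar factors in LPS lungs, and dual 2 held the highest ratio.

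*Sftpa1* encodes SP-A, the most abundant surfactant protein by mass and the collectin that organises surfactant into tubular myelin. It had 4600, 4038 and 4812 CPM in control 1, 2 and 4, 4360, 3416 and 2918 CPM in LPS 1, 6 and 7, and 5012 and 4805 CPM in dual 2 and 5. LPS 1 lay inside the control range, LPS 6 and 7 lay below it, and both dual-treated mice lay near or above its upper end. The log2 fold change in LPS lungs was -0.33 ± 0.17 (SE) and was not called (adjusted p = 0.109, edgeR quasi-likelihood test, Benjamini-Hochberg), and it was -0.03 with LPS libraries 6 and 7 left out. With library size in place of TMM it was -0.63, and the gene was then called lower (adjusted p = 0.00145, same test). It was also called lower without LPS 1, at -0.49 (adjusted p = 0.0149, same test). In dual-treated lungs it was 0.13 against control (adjusted p = 0.693, same test) and 0.46 against LPS (adjusted p = 0.0568, same test). Over the 16 settings the value against LPS ran from 0.164 to 0.801, and its call was the same in 12 of them. Of the 9 genes *Sftpa1* had the smallest estimate in LPS against control lungs.

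*Sftpd* encodes SP-D, the collectin with the broadest binding to bacteria and fungi, and it was the only one of the 9 that rose with LPS. It had 1462, 1397 and 1550 CPM in control 1, 2 and 4, 3380, 2907 and 2649 CPM in LPS 1, 6 and 7, and 2588 and 1822 CPM in dual 2 and 5. Every LPS mouse was above every control mouse, LPS 1 being the highest, and both dual-treated mice lay between the groups, dual 2 just under the LPS range and dual 5 nearer to control. In LPS against control the gene was 2.03-fold higher, a log2 fold change of 1.02 ± 0.16 (SE, adjusted p = 0.000404, edgeR quasi-likelihood test, Benjamini-Hochberg), and 1.21 with LPS libraries 6 and 7 left out. This call held under all 16 alternative settings, with log2 fold changes from 0.73 to 1.21. In dual-treated lungs the log2 fold change was 0.59 against control, which missed the threshold (adjusted p = 0.0528, same test), and it was called under 9 of the 16 settings, DESeq2 (adjusted p = 0.00667) among them. Over these settings it ran from 0.28 to 0.787. Against LPS it was -0.43 (adjusted p = 0.0642, same test).

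Both collectin genes lie near each other on chromosome 14, *Sftpa1* (ENSMUSG00000021789) at chr14:40853739-40858551 on the plus strand and *Sftpd* (ENSMUSG00000021795) at chr14:40894170-40907128 on the minus strand of GRCm39, with the collectin gene *Mbl1* overlapping *Sftpd* on the opposite strand. The ratio of *Sftpd* to *Sftpa1* counts was 0.318, 0.346 and 0.322 in control 1, 2 and 4, 0.775, 0.851 and 0.908 in LPS 1, 6 and 7, and 0.516 and 0.379 in dual 2 and 5. The 3 groups did not overlap in this ratio, which no scaling can move, so these neighbouring genes changed unequally in the lungs of all 3 LPS mice. The ratio of *Sftpd* to *Sftpc* counts rose further, from 0.0604, 0.0714 and 0.0632 in the control mice to 0.204, 0.263 and 0.318 in LPS 1, 6 and 7, and it was 0.303 in dual 2 and 0.102 in dual 5. *Mbl1* held 65 to 132 counts in each library. No test was made of the ratios.

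*Abca3* encodes the transporter that carries phospholipid into the lamellar body. Its values were 391, 393 and 517 CPM in control 1, 2 and 4, 196, 151 and 185 CPM in LPS 1, 6 and 7, and 328 and 372 CPM in dual 2 and 5. No LPS mouse reached the lowest mouse of either other group, and the dual-treated mice lay just under the control range. *Abca3* was 2.44-fold lower in LPS lungs, a log2 fold change of -1.29 ± 0.15 (SE, adjusted p = 5.27e-05, edgeR quasi-likelihood test, Benjamini-Hochberg), and -1.14 with LPS libraries 6 and 7 left out. In dual-treated against LPS lungs it was 0.98 ± 0.16 (adjusted p = 0.000733, same test), and against control -0.31 ± 0.17 (adjusted p = 0.243, same test).

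*Lpcat1* encodes an acyltransferase of the remodelling pathway that yields dipalmitoylphosphatidylcholine, the main surface-active lipid. It had 527, 505 and 536 CPM in control 1, 2 and 4, 147, 153 and 132 CPM in LPS 1, 6 and 7, and 417 and 539 CPM in dual 2 and 5. The LPS mice lay close together and far below the others, and dual 5 lay just above the control range. *Lpcat1* was 3.63-fold lower in LPS lungs, a log2 fold change of -1.86 ± 0.12 (SE, adjusted p = 2.21e-06, edgeR quasi-likelihood test, Benjamini-Hochberg), and -1.82 with LPS libraries 6 and 7 left out. It was 1.73 ± 0.13 in dual-treated against LPS lungs (adjusted p = 1.05e-05, same test) and -0.13 ± 0.13 against control (adjusted p = 0.569, same test).

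*Slc34a2* encodes the sodium and phosphate cotransporter of the apical type 2 cell membrane, which takes up phosphate set free when surfactant lipid is broken down. It had 1999, 1786 and 2181 CPM in control 1, 2 and 4, 415, 457 and 374 CPM in LPS 1, 6 and 7, and 1589 and 1645 CPM in dual 2 and 5. The LPS mice held the lowest values by a wide margin, and the dual-treated mice lay close to each other just below the control range. This was the largest change of the 9 in LPS lungs, 4.79-fold lower, a log2 fold change of -2.26 ± 0.13 (SE, adjusted p = 1.33e-06, edgeR quasi-likelihood test, Benjamini-Hochberg), and -2.25 with LPS libraries 6 and 7 left out. It was 1.96 ± 0.14 in dual-treated against LPS lungs (adjusted p = 8.14e-06, same test) and -0.30 ± 0.14 against control (adjusted p = 0.193, same test). The log2 fold change in LPS lungs stayed between -2.55 and -2.18 under all 16 settings. The antisense transcript *Gm17182*, which overlaps *Slc34a2*, had 70, 44 and 60 counts in the control mice, 7, 1 and 3 in the LPS mice and 32 and 55 in the dual-treated mice. The strand setting of the read counting is not given in the sources used here, so reads of such overlapping pairs cannot be told apart.

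*Napsa* encodes napsin A, an aspartic protease of the lamellar body pathway that helps to process the SP-B precursor. It had 303, 295 and 331 CPM in control 1, 2 and 4, 261, 231 and 194 CPM in LPS 1, 6 and 7, and 316 and 364 CPM in dual 2 and 5. The LPS mice were the lowest and the dual-treated mice overlapped the control range and passed it. The log2 fold change was -0.44 ± 0.13 (SE) in LPS against control (adjusted p = 0.0126, edgeR quasi-likelihood test, Benjamini-Hochberg) and 0.57 ± 0.14 in dual-treated against LPS lungs (adjusted p = 0.00652, same test). With LPS libraries 6 and 7 left out these were -0.24 (adjusted p = 0.178, same test) and 0.37 (adjusted p = 0.070), so neither call held. Without dual 5 the rise over LPS was 0.45 and was not called (adjusted p = 0.0517, same test). The ratio of *Slc34a2* to *Napsa* counts was 6.60, 6.06 and 6.59 in control 1, 2 and 4, 1.59, 1.98 and 1.93 in LPS 1, 6 and 7, and 5.03 and 4.52 in dual 2 and 5. The RNAs of these 2 genes thus changed unequally in the lungs of all 3 LPS mice.

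*Lamp3* encodes a membrane protein of the lamellar body that is also a marker of mature dendritic cells. It had 417, 402 and 507 CPM in control 1, 2 and 4, 380, 299 and 226 CPM in LPS 1, 6 and 7, and 282 and 343 CPM in dual 2 and 5. LPS 1 lay just under the control range, and the dual-treated mice lay within the spread of the LPS mice. The log2 fold change was -0.55 ± 0.19 (SE) in LPS against control (adjusted p = 0.0252, edgeR quasi-likelihood test, Benjamini-Hochberg), and -0.21 with LPS libraries 6 and 7 left out (adjusted p = 0.351, same test). The call was also lost without control 4, LPS 6 or LPS 7, where the log2 fold change was -0.44, -0.54 and -0.37 (adjusted p = 0.0852, 0.0638 and 0.0661, same test). In dual-treated lungs it was -0.50 against control (adjusted p = 0.142, same test) and 0.05 against LPS (adjusted p = 0.843). Over the 16 settings the value against LPS ran from -0.29 to 0.392, and it was negative with LPS libraries 6 and 7 left out. The call against control was the same in 13 of the 16.

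Because *Lamp3* is shared with dendritic cells, 9 of their markers were read beside it. In LPS against control lungs 4 rose and 4 fell of the 8 tested, where 32.6% and 33.9% of all genes did, and *Il4i1* was below the filter. *Il4i1*, a marker of mature dendritic cells like *Ccr7*, had 5, 7 and 17 counts in control 1, 2 and 4 and 0, 5 and 3 in LPS 1, 6 and 7. *Ccr7*, the chemokine receptor that guides them to lymph nodes, had 4.26, 4.46 and 4.55 CPM in control 1, 2 and 4, 84.7, 58.3 and 68.4 CPM in LPS 1, 6 and 7, and 12.3 and 3.03 CPM in dual 2 and 5. *Ccl22*, a chemokine they release, had a log2 fold change of 3.40 (adjusted p = 6.2e-07, edgeR quasi-likelihood test, Benjamini-Hochberg), and *Fscn1* and *Cd83* had 2.52 and 0.84 (adjusted p = 8.13e-05 and 0.00234). Of those that fell, *Cd209a* and the transcription factor gene *Zbtb46* had log2 fold changes of -3.13 and -1.76 (adjusted p = 4.04e-05 and 4.15e-06, same test), and *Flt3* and *Xcr1* had -2.11 and -1.80 (adjusted p = 0.00514 and 0.0301). These last 2 were not called with LPS libraries 6 and 7 left out, nor *Xcr1* without control 2 or control 4. Their log2 fold changes stayed between -2.54 and -1.48 and between -2.20 and -1.26 under all settings in which they were tested. After dual treatment 1 of the 8 was higher and 5 lower than with LPS (all genes: 31.7% and 27.4%), and 1 higher and 4 lower than in control lungs (9.13% and 7.02%). Without dual 5 these last counts were 2 and 2, and the 1 higher gene, *Fscn1*, lost its call in 6 of 16 settings. *Ccl22* had the highest mean CPM over the 8 libraries, not corrected for length. The summed level of the 9 markers was 105, 96.5 and 93.6 CPM in control 1, 2 and 4, 304, 234 and 223 CPM in LPS 1, 6 and 7, and 101 and 68.8 CPM in dual 2 and 5. Their part in the values of *Lamp3* was not tested.

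For *Sftpa1*, *Sftpb* and *Sftpd* the 3 genes with the most similar pattern are given, out of 10382 genes with a mean of at least 10 CPM, by the root mean square difference of log2 CPM over the 8 libraries after centring. For *Sftpa1* they were *Pld3*, *Lamb3* and *Trappc3*, at 0.0737, 0.0932 and 0.0945. For *Sftpb* they were *Sfta2*, which encodes another surfactant-associated protein, *Radil* and *Bcam*, at 0.0998, 0.119 and 0.120. *Sfta2* had group means of 87.4, 41.6 and 59.7 CPM in control, LPS and dual-treated lungs. For *Sftpd* they were *Fbxl5*, *Ptges*, the prostaglandin E synthase gene, and *Polr3c*, at 0.0762, 0.0839 and 0.0866. *Ptges* had group means of 41.4, 82.8 and 59.4 CPM in the same order. These are descriptions of 8 libraries and carry no test.

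Transcription of surfactant genes depends on a small set of lung factors, among them NKX2-1, FOXA1, FOXA2, C/EBP alpha and ETV5. The counts of this and the following lists stand beside the shares of all genes given above for each comparison. Of 10 such regulators, 5 fell and 4 rose in LPS against control lungs, and *Nr3c1*, the glucocorticoid receptor gene, was not called. *Nkx2-1* had 317, 306 and 309 CPM in control 1, 2 and 4, 61.3, 63.4 and 53.9 CPM in LPS 1, 6 and 7, and 234 and 206 CPM in dual 2 and 5. The LPS mice lay close together and far below all others, and the dual-treated mice lay below the control range. Its log2 fold change was -2.38 ± 0.11 (SE) in LPS against control (adjusted p = 4.64e-07, edgeR quasi-likelihood test, Benjamini-Hochberg), -0.50 in dual-treated against control (adjusted p = 0.0166, same test; lost without control 1, control 2 or dual 5) and 1.88 in dual-treated against LPS lungs (adjusted p = 3.97e-06, same test).

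*Etv5*, an ETS factor needed to keep the type 2 identity, changed the most of the 10. It had 236, 182 and 251 CPM in control 1, 2 and 4, 23.8, 25.2 and 22.6 CPM in LPS 1, 6 and 7, and 142 and 175 CPM in dual 2 and 5. The LPS mice were again tightly grouped and the lowest. Its log2 fold change was -3.22 ± 0.15 (SE) in LPS lungs (adjusted p = 5.54e-07, edgeR quasi-likelihood test, Benjamini-Hochberg) and 2.73 in dual-treated against LPS lungs (adjusted p = 3.71e-06, same test). *Foxa2*, *Cebpa* and *Nfib* also fell with LPS, by 1.77, 1.09 and 0.88 on the log2 scale (adjusted p = 1.39e-06, 3.55e-05 and 2.8e-05, same test). All 3 stood above the LPS level after dual treatment, with log2 fold changes of 0.95, 0.78 and 0.52 (adjusted p = 0.00011, 0.000731 and 0.0018, same test). In dual-treated against control lungs *Foxa2* was still lower, at -0.82 (adjusted p = 0.00183, same test), a call kept under 15 of 16 settings. *Nfib* was at -0.36 (adjusted p = 0.0448, same test), a call kept under 9. *Cebpa* and *Etv5*, at -0.31 and -0.49, were not called (adjusted p = 0.149 and 0.0575, same test). Under the 16 settings *Nkx2-1*, *Etv5*, *Foxa2* and *Cebpa* were called lower in LPS lungs each time, with LPS libraries 6 and 7 left out as well.

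The regulators that rose were *Stat3*, the transcription factor gene of interleukin-6 signalling, *Foxa1*, *Gata6* and *Fgfr2*. *Stat3* had 260, 229 and 241 CPM in control 1, 2 and 4, 1128, 919 and 948 CPM in LPS 1, 6 and 7, and 296 and 250 CPM in dual 2 and 5. Its log2 fold change was 2.04 ± 0.13 (SE) in LPS against control (adjusted p = 1.71e-06, edgeR quasi-likelihood test, Benjamini-Hochberg) and -1.87 in dual-treated against LPS lungs (adjusted p = 1.19e-05, same test). *Foxa1* had a log2 fold change of 0.98 in LPS lungs (adjusted p = 0.000128, same test), opposite in sign to that of the related *Foxa2*, and -1.52 in dual-treated against LPS lungs (adjusted p = 4.33e-05, same test). *Gata6* and *Fgfr2* rose by 0.43 and 0.26 (adjusted p = 0.0121 and 0.0473, same test), calls that were lost with library size in place of TMM. For *Fgfr2* the call was kept under only 6 of 16 settings and was lost without each control mouse, without LPS 1 or LPS 6, and with LPS libraries 6 and 7 left out. After dual treatment 6 of the 10 were lower than control and 0 higher, but only 1 was lower without control 1, 2 without control 2, control 4 or dual 2, and 3 without dual 5. Against LPS 5 were higher and 4 lower.

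**Figure D3:**
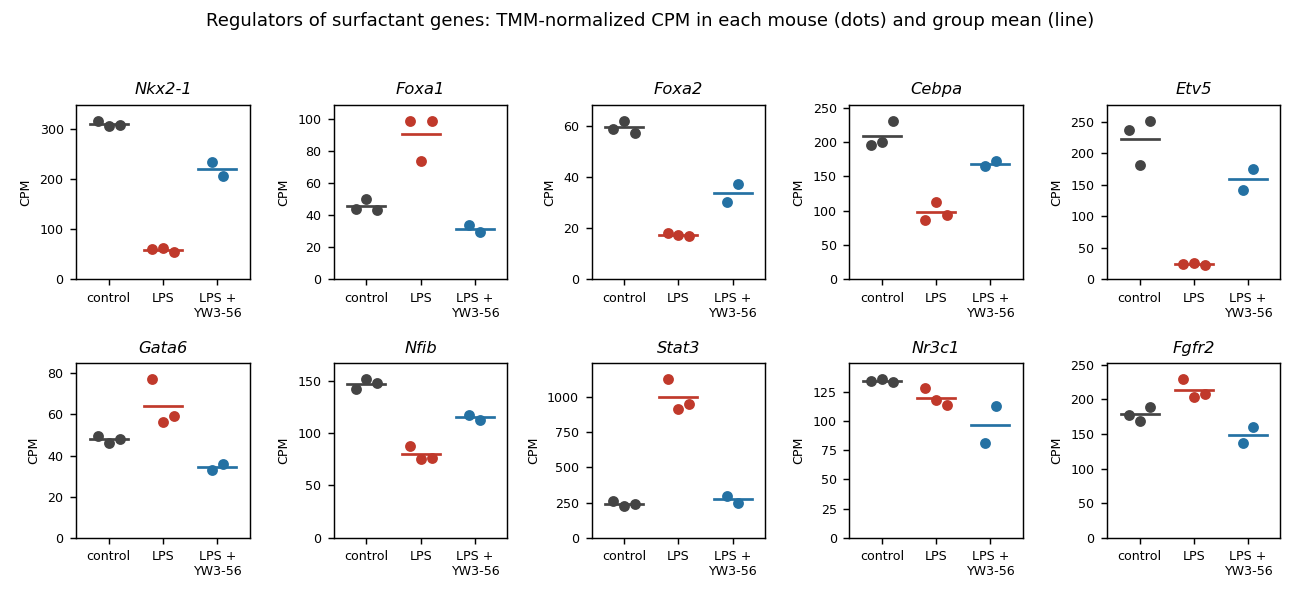
TMM-normalized CPM of the 10 regulators in each mouse, on linear axes that start at 0, with a dot for each of 3 control, 3 LPS and 2 dual-treated mice and a line at the group mean. For *Nkx2-1*, *Foxa2*, *Cebpa*, *Etv5* and *Nfib* the LPS mice are the lowest, and for *Stat3* and *Foxa1* they are the highest.

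Promoter sequences from RefSeq, running from 250 bases before to 50 bases after the gene start on GRCm38.p6, were held for 6 of the 9 genes; *Sftpc*, *Sftpd* and *Napsa* had no entry. Each was searched on both strands for CAAGTG (NKX2-1), TGTTTAC and TGTTTGC (FOXA), TTGCNNAA (C/EBP) and GGANTTTCC (NF-kB). Of all 32851 promoters in the table, 13.6%, 3.65%, 5.07%, 10.8% and 1.25% held these motifs in that order. The end of TGTTTGC is the start of TTGCNNAA, so that both can share bases, which none of the matches did. *Sftpa1* held CAAGTG at 2 places, both on the minus strand, starting 202 and 14 bases before the gene start. *Sftpb* held TGTTTGC on the minus strand at 88 bases, and *Lamp3* held TGTTTAC on the plus strand at 92 bases. *Slc34a2* held TTGCNNAA at 48 bases, at 1 place that reads as a match on both strands. In the windows of *Abca3* and *Lpcat1* none of these letters were found, and GGANTTTCC was in none of the 6. The 4 promoters with a match are printed. They belong to the gene with the smallest change in LPS lungs (*Sftpa1*), the gene with the largest (*Slc34a2*), and a pair between them. *Abca3* and *Lpcat1*, without a match, had log2 fold changes of -1.29 and -1.86 in LPS against control lungs. A link between matches and fold changes was not tested. A match is only a run of letters, and neither binding nor use was measured. The 250 bases before the start are given 5′ to 3′ on the strand of the gene with the matched letters in capitals, as the reverse complement where the match is on the minus strand: *Sftpa1* at chr14:41131538-41131787 and *Sftpb* at chr6:72304360-72304609 on the plus strand, *Lamp3* at chr16:19706366-19706615 on the minus strand, and *Slc34a2* at chr5:53049103-53049352 on the plus strand.
Sftpa1: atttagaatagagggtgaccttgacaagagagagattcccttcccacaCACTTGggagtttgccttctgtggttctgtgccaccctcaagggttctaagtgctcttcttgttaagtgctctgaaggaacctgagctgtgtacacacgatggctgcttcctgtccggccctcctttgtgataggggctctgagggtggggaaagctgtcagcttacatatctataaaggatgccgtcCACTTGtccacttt
Sftpb: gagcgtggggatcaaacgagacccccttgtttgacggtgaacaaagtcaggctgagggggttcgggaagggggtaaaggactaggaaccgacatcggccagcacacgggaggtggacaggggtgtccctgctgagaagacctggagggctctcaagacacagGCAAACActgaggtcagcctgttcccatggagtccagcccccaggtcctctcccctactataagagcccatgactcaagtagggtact
Lamp3: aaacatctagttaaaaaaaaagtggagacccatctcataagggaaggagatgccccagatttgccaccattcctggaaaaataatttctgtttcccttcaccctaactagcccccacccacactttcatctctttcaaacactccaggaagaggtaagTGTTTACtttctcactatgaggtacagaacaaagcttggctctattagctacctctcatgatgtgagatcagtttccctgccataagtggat
Slc34a2: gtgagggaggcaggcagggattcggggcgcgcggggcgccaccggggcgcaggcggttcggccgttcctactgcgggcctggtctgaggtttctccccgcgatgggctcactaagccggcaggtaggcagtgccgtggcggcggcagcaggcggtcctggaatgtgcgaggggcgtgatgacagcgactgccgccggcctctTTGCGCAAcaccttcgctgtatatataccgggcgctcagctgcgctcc

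Surfactant lipid is built by the enzymes of phosphatidylcholine and fatty acid synthesis. Of 16 genes of lipid synthesis, its regulation and lipid handling, 9 fell and 3 rose in LPS against control lungs, where 33.9% of all genes fell and 32.6% rose, with a median log2 fold change of -0.32, and 7 fell and 3 rose with LPS libraries 6 and 7 left out. The lowest was *Acaca*, the acetyl-CoA carboxylase that commits carbon to fatty acid synthesis, with 98.3, 124 and 125 CPM in control 1, 2 and 4, 46.0, 38.0 and 47.8 CPM in LPS 1, 6 and 7, and 84.1 and 85.7 CPM in dual 2 and 5. The LPS mice lay below all others. Its log2 fold change was -1.40 in LPS lungs (adjusted p = 1.06e-05, edgeR quasi-likelihood test, Benjamini-Hochberg) and 0.95 in dual-treated against LPS lungs (adjusted p = 3e-04, same test). The highest was *Elovl6*, a fatty acid elongase, at 1.54 (adjusted p = 0.00361, same test), with only 4.26 to 13.9 CPM in control mice. *Prdx6*, a peroxiredoxin with a phospholipase activity in lamellar bodies, rose by 0.73 in LPS lungs (adjusted p = 0.000635, same test). It was lower in dual-treated than in control lungs, at -0.58 (adjusted p = 0.0232, same test), a call lost without control 1, control 2 or dual 2. With dual treatment 6 of the 16 were lower than control and 0 higher, but only 1 was lower without dual 2, 2 without control 2, and 3 without control 1, without control 4 or with library size only. Against LPS 6 were higher and 3 lower, or 4 and 3 without LPS libraries 6 and 7.

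Of 14 genes of surfactant processing, lamellar body trafficking and secretion, 5 rose and 4 fell in LPS against control lungs, close to the shares of all genes (32.6% and 33.9%), and 6 rose and 4 fell with LPS libraries 6 and 7 left out. *P2ry2*, the purinergic receptor through which ATP triggers lamellar body release, rose the most. It had 15.8, 11.4 and 15.1 CPM in control 1, 2 and 4, 112, 82.1 and 89.9 CPM in LPS 1, 6 and 7, and 23.1 and 20.7 CPM in dual 2 and 5, and the 3 groups did not overlap. It rose by 2.75 on the log2 scale in LPS lungs (adjusted p = 1.33e-06, edgeR quasi-likelihood test, Benjamini-Hochberg). *Hps4*, of a complex that builds lysosome-related organelles, fell the most, at -1.44 (adjusted p = 2.72e-05, same test). *Adgrf5*, an adhesion receptor that restrains the surfactant pool and is also expressed in endothelium, was at -0.72 in LPS lungs (adjusted p = 0.000659, same test) and -0.62 after dual treatment (adjusted p = 0.0174, same test), each relative to control, the latter lost without control 1, control 2 or dual 2. Relative to control, 2 of the 14 were higher and 2 lower after dual treatment, and against LPS 4 were higher and 5 lower, or 2 and 5 without dual 5.

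Other markers of type 2 cells moved in both directions. Of 9, 5 fell and 2 rose in LPS against control lungs, and 2 fell and 1 rose with LPS libraries 6 and 7 left out. *Lgi3*, a secreted protein gene, had 340, 320 and 386 CPM in control 1, 2 and 4, 36.8, 21 and 23.6 CPM in LPS 1, 6 and 7, and 213 and 214 CPM in dual 2 and 5, so that the LPS mice were the lowest by far. It fell by 3.68 on the log2 scale in LPS lungs (adjusted p = 1.04e-06, edgeR quasi-likelihood test, Benjamini-Hochberg). *Chil1* (annotated as *Chi3l1*), a chitinase-like protein gene that macrophages and airway cells also express, rose by 2.06 (adjusted p = 5.54e-06, same test). It had 841, 689 and 980 CPM in control 1, 2 and 4, 3741, 3663 and 3072 CPM in LPS 1, 6 and 7, and 1369 and 1194 CPM in dual 2 and 5. Relative to control, 1 of the 9 (*Chil1*, called under 9 of 16 settings) was higher and 3 lower after dual treatment, and against LPS 3 were higher and 4 lower, or 1 and 5 without LPS libraries 6 and 7. Their summed level was 3209, 2997 and 3955 CPM in control 1, 2 and 4, 5737, 5069 and 4263 CPM in LPS 1, 6 and 7, and 2477 and 2832 CPM in dual 2 and 5. *Chil1* alone carried the higher sum in LPS lungs, and the other 8 together were lower in every LPS mouse than in every control mouse.

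Surfactant is cleared by alveolar macrophages under the control of GM-CSF, and 9 genes of this route were read. With LPS, 2 rose and 3 fell, or 2 and 1 without LPS libraries 6 and 7. *Spi1*, the macrophage and neutrophil factor PU.1, had the highest log2 fold change with LPS, 2.43, and had 2.17 after dual treatment, each relative to control (adjusted p = 1.22e-05 and 0.00045, edgeR quasi-likelihood test, Benjamini-Hochberg). *Pla2g15*, the lysosomal phospholipase that degrades surfactant lipid in macrophages, had the lowest, with 41.2, 33.3 and 37.4 CPM in control 1, 2 and 4, 13.1, 13.1 and 9.15 CPM in LPS 1, 6 and 7, and 31.6 and 45.8 CPM in dual 2 and 5. The LPS mice lay below all others, and the dual-treated mice spanned the control range. Its log2 fold change was -1.66 in LPS lungs (adjusted p = 4.09e-05, same test) and 1.72 in dual-treated against LPS lungs (adjusted p = 9.29e-05, same test). The lipid exporter gene *Abca1* was not called in LPS lungs, at -0.10 (adjusted p = 0.461, same test). In dual-treated against control lungs 4 of the 9 were higher and 1 lower, and against LPS 5 were higher and 1 lower, or 3 and 1 without LPS libraries 6 and 7.

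Markers of other lung cells moved with the same treatment. Of 10 pan-epithelial genes, 4 rose and 4 fell in LPS against control lungs, and with LPS libraries 6 and 7 left out 4 rose and 1 fell. The tight junction gene *Cldn4* had the highest log2 fold change, 1.96, and the keratin gene *Krt19* the lowest, -1.61 (adjusted p = 0.000466 and 1.2e-05, edgeR quasi-likelihood test, Benjamini-Hochberg), and *Krt7* had -0.50 (adjusted p = 0.0406, same test), a call kept under 8 of 16 settings and lost without LPS libraries 6 and 7. By mean CPM over the 8 libraries, not corrected for length, *Krt7* was the largest of these genes, and *Ager*, *Scgb1a1*, *Cdh5*, *Lcp1* and *S100a9* were the largest of the type 1, club, endothelial, leukocyte and neutrophil lists. Their summed level was 2560, 2446 and 2611 CPM in control 1, 2 and 4, 3215, 2473 and 2355 CPM in LPS 1, 6 and 7, and 1989 and 2415 CPM in dual 2 and 5. Control and LPS lungs overlapped in this sum. Against control 2 of the 10 were lower and 0 higher in dual-treated lungs, and against LPS 3 were higher and 4 lower, or 1 and 5 without LPS libraries 6 and 7.

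Of 7 type 1 alveolar cell markers, 4 fell and 1 rose with LPS. *Rtkn2* fell the most, from 310, 317 and 289 CPM in control 1, 2 and 4 to 6.59, 4.50 and 4.97 CPM in LPS 1, 6 and 7, with 129 and 163 CPM in dual 2 and 5, and *Pdpn* rose by 0.94 on the log2 scale. Their log2 fold changes had adjusted p = 8.37e-08 and 0.000727 (edgeR quasi-likelihood test, Benjamini-Hochberg). *Ager* was not called in LPS lungs, at -0.26 (adjusted p = 0.332, same test). The summed level was 5184, 4887 and 5005 CPM in control 1, 2 and 4, 3845, 3230 and 2282 CPM in LPS 1, 6 and 7, and 2673 and 3631 CPM in dual 2 and 5. In dual-treated against control lungs 2 of the 7 were lower and 0 higher, and against LPS 4 were higher and 2 lower. Of these 2, *Ager* kept its call under 7 of 16 settings. Of 5 club cell markers, 3 rose and 1 (*Cyp2f2*) fell with LPS; *Scgb3a1* rose the most, by 1.37 (adjusted p = 4.1e-05, same test). *Scgb1a1*, the club cell secretoglobin, took 3.15%, 3.97% and 3.65% of all counts in control 1, 2 and 4, 5.29%, 4.95% and 4.99% in LPS 1, 6 and 7, and 2.51% and 2.73% in dual 2 and 5. The summed level of the 5 was 31108, 39354 and 36608 CPM in control 1, 2 and 4, 68384, 58322 and 56600 CPM in LPS 1, 6 and 7, and 24000 and 26501 CPM in dual 2 and 5. *Scgb1a1* alone held a larger share of counts than the 9 surfactant genes together in all LPS libraries, in control 2 and in dual 2. *Cyp2f2*, at -0.77 (adjusted p = 0.0198, same test), was called under 11 of 16 settings and not with LPS libraries 6 and 7 left out, and against LPS 3 of the 5 were lower and 0 higher in dual-treated lungs, while against control 2 were lower and 0 higher.

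Of 7 endothelial markers, 5 fell and 0 rose with LPS at an adjusted p under 0.05, with *Calcrl* the lowest at a log2 fold change of -4.99 (adjusted p = 3.2e-07, edgeR quasi-likelihood test, Benjamini-Hochberg) and *Cdh5* the highest, not called at 0.17 (adjusted p = 0.382, same test). No endothelial marker rose at an unadjusted p under 0.05 or by DESeq2 either, while *Cdh5* was called higher with LPS libraries 6 and 7 left out. Their summed level was 3685, 4046 and 4023 CPM in control 1, 2 and 4, 1973, 1638 and 1591 CPM in LPS 1, 6 and 7, and 3425 and 3661 CPM in dual 2 and 5. Against control 1 of the 7 was higher and 2 lower in dual-treated lungs, and against LPS 5 were higher and 0 lower, while *Cdh5*, at -0.44, was called lower under 5 of 16 settings, DESeq2 among them. Leukocyte markers summed to 442, 384 and 418 CPM in control 1, 2 and 4, 753, 802 and 570 CPM in LPS 1, 6 and 7, and 919 and 1279 CPM in dual 2 and 5, the dual-treated mice being the highest. Of the 5, 4 rose with LPS, *Coro1a* by the most at 1.06 (adjusted p = 0.001, same test), and 0 fell; *Lcp1* was not called, at 0.40 (adjusted p = 0.0603, same test), but was called under 8 of 16 settings, DESeq2 among them. All 5 were higher than control in dual-treated lungs, and 4 were higher and 0 lower against LPS, or 2 and 0 without LPS libraries 6 and 7 and also without dual 5.

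Of 6 neutrophil markers, all 6 rose with LPS. *S100a9* had 98.3, 55.5 and 57.3 CPM in control 1, 2 and 4, 1362, 1856 and 1183 CPM in LPS 1, 6 and 7, and 832 and 1171 CPM in dual 2 and 5. On the log2 scale the change was highest for *Ly6g*, 5.16, and lowest for *Csf3r*, 0.97 (adjusted p = 0.000157 and 0.00909, edgeR quasi-likelihood test, Benjamini-Hochberg), and *Csf3r* was not called with LPS libraries 6 and 7 left out. In dual-treated lungs 5 of the 6 were higher and 0 lower against control, and 3 were higher and 1 lower against LPS, or 1 and 1 without dual 5, and 0 and 0 without LPS libraries 6 and 7, when 1 LPS mouse was left to test. All 4 kept their direction over the settings, with log2 fold changes from 0.38 to 1.46 for *Csf3r* and from -4.17 to -2.08 for *Ly6g*. Their summed level was 209, 115 and 121 CPM in control 1, 2 and 4, 2099, 2896 and 1821 CPM in LPS 1, 6 and 7, and 1647 and 2314 CPM in dual 2 and 5. No list had a gene at 0 counts in all libraries. The part of changed cell numbers in the values of the surfactant genes was not tested.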

How the data were processed

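The authors deposited gene-level counts for each library. The submitters' processing notes name FastQC 0.11.9, Trim Galore, HISAT2 2.2.1 on GRCm39 and featureCounts 2.0.1; the strand setting and the handling of multimapped reads are not given in the sources used here. Of the 55416 Ensembl gene identifiers, 54749 were matched to GENCODE mouse release M39, which supplied symbols and exon lengths, and the 667 unmatched ones held 0.0533% of counts. Genes were kept by edgeR's filterByExpr (18560 tested), scaled by TMM and tested with edgeR 4.0.16 in R 4.3.3, by quasi-likelihood F tests on 1 fit of all 8 libraries with group as the only factor and 5 residual degrees of freedom. Separate mice served as replicates. Adjusted p-values are Benjamini-Hochberg values over all genes tested, and a gene was called at an adjusted p under 0.05. The code was tested on simulated data in which 200 of 18560 genes changed by 1 on the log2 scale. It recovered 61% of them in LPS against control and 50.5% in dual-treated against control. Many changes of this size would therefore be missed. Of the unchanged genes, 0.0599% and 0.0272% were called.

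TMM centred the values: with library size only, the median log2 fold change of all genes was -0.29 in LPS against control and 0.38 in dual-treated against LPS lungs, against -0.01 and 0.0601 with TMM. Calls higher and lower were then 4336 and 7832 in place of 6046 and 6300, and 7889 and 3225 in place of 5875 and 5085. The 16 alternatives were library size only, DESeq2 size factors in edgeR, DESeq2 1.42.0, no filter on low counts, at least 10 counts in every library, the compared groups only, a fold change over 2 with an unadjusted p under 0.05, LPS libraries 6 and 7 left out, and each library left out in turn. The 9 genes and the gene lists were chosen with earlier results of these data known. Genes named from a list are its gene with the highest mean over the 8 libraries and those with the highest and lowest log2 fold change in LPS against control lungs, and any gene of the regulator and dendritic cell lists.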

Additional observations from a re-analysis of the deposited data

How the results depend on the processing

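In LPS against control lungs *Slc34a2*, *Lpcat1*, *Abca3* and *Sftpd* kept direction and call under all 16 alternatives. Over genes and alternatives, 127 results were the same, 15 weaker, 2 stronger and 0 reversed. The median log2 fold change of the 9 genes was -1.21 with library size only, as the shift of all genes under that scaling requires. By the fold change criterion, which asks for a larger change but does not adjust p, 3 genes were lower. With LPS libraries 6 and 7 left out 3 were lower and the median was -0.454. With 1 library left out the median ran from -1.14 to -0.712, at -1.14 without LPS 1, -0.799 without control 4 and -0.712 without LPS 7; the count lower ran from 5 to 8. In dual-treated against control lungs 128 results were the same, 0 weaker, 14 stronger and 2 reversed. The count higher was 1 in place of 0 with library size only, DESeq2, no filter on low counts, at least 10 counts in every library, the compared groups only, LPS libraries 6 and 7 left out, and without LPS 1, LPS 7 or dual 5. The count lower was 2 with no filter, 1 with the compared groups only, 1 with LPS libraries 6 and 7 left out and 1 without dual 5. With 1 library left out the counts higher and lower each ran from 0 to 1 and the median from -0.373 to -0.193, at -0.193 without control 4. *Lpcat1* reversed to 0.0148 without dual 2 (leave-one-out range -0.354 to 0.0148) and *Napsa* to -0.000546 without dual 5 (range -0.000546 to 0.203). In dual-treated against LPS lungs 121 results were the same, 4 weaker, 10 stronger and 9 reversed. The median was 0.801 with library size only and 0.164 with LPS libraries 6 and 7 left out. The count lower was 1 in place of 0 with DESeq2 size factors, DESeq2, LPS libraries 6 and 7 left out, and without LPS 7 or dual 2, and the count higher was 2 in place of 4 by the fold change criterion. With 1 library left out the count lower ran from 0 to 1, the count higher from 3 to 5 and the median from 0.327 to 0.641, at 0.625 without LPS 1, 0.327 without LPS 7 and 0.641 without dual 2. *Lamp3* reversed to -0.0029 with DESeq2 size factors and -0.29 with LPS libraries 6 and 7 left out (leave-one-out range -0.129 to 0.246). *Sftpb* reversed to -0.0195 (range -0.0176 to 0.641) and *Sftpc* to -0.333 (range -0.508 to 0.558) with LPS libraries 6 and 7 left out. The cause was not tested where none is given. Among all genes, dual-treated against control lungs had 1854 higher and 1871 lower by DESeq2, 1307 and 637 by the fold change criterion, 1088 and 700 without control 1, 973 and 580 without control 2, 977 and 733 without control 4, and 790 and 430 without dual 2, in place of 1695 and 1302. By the fold change criterion LPS against control lungs had 3401 higher and 4049 lower, in place of 6046 and 6300, and dual-treated against LPS lungs 3826 and 2728, in place of 5875 and 5085. With 1 library left out, the genes called lower in dual-treated than in control lungs ran from 1 to 6 for regulators, 1 to 7 for lipid synthesis, 1 to 2 for processing and trafficking, 1 to 4 for other type 2 markers, 0 to 3 for pan-epithelial genes, 1 to 4 for type 1 markers, 1 to 2 for club markers, 1 to 3 for endothelial markers, 0 to 2 for clearance and 2 to 4 for dendritic cell markers, and those called higher from 0 to 3 for processing and trafficking, 0 to 1 for other type 2 and endothelial markers, 4 to 5 for clearance and leukocyte markers, 5 to 6 for neutrophil markers and 0 to 2 for dendritic cell markers; fewer libraries also weaken the test. In the same fits, counts against LPS after dual treatment ran from 4 to 6 higher for lipid synthesis, 2 to 4 for processing and trafficking, 1 to 3 for other type 2 markers, 3 to 5 for clearance, 1 to 4 for pan-epithelial genes, 2 to 4 for leukocyte markers, 1 to 3 for neutrophil markers and 1 to 2 for dendritic cell markers, and from 1 to 2 lower for type 1 markers, 0 to 1 for clearance and endothelial markers, 4 to 6 for dendritic cell markers, 1 to 7 for squamous and 5 to 7 for muscle markers. In LPS against control lungs they ran from 1 to 2 higher and 3 to 5 lower for other type 2 markers, 2 to 3 higher and lower for clearance, 2 to 4 lower for pan-epithelial genes, 0 to 1 lower for club markers, and 2 to 7 and 5 to 7 higher for squamous and muscle markers. No paired analysis was possible because the groups share at most 1 replicate number. The dual-treated group had 2 libraries, although the methods describe 3 sequenced mice per group, and lungs were taken at a single time.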
